A study of Mus musculus with 16 samples.

Results

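The nuclear genes for the subunits of the respiratory chain and ATP synthase were followed in mouse hearts with deletion of the gene for CAP2, a regulator of actin filament turnover. Members were taken by gene symbol: Nduf genes of the A, B, C, S and V series, Sdha to Sdhd, Uqcr genes, Cyc1, Cycs, Cox4 to Cox8 genes and Atp5 genes, without pseudogenes marked -ps. This gave 88 gene identifiers of the 55972 in either table, of which 85 were in both. Experiment A held 87 of them among 38087 genes and experiment B 86 among 54232. The rule also takes Cox7a2l, a factor of respiratory supercomplexes, and Atp5l2, which GENCODE M21 lists as a processed pseudogene. Atp5s and Atp5sl were taken by symbol alone, and every gene with an Atp5 symbol is counted under complex V.

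Experiment A compared hearts of 3 CAP2 -/- and 3 wild-type (WT) C57BL/6 females aged 86 weeks. Experiment B compared 13-week-old C57BL/6 hearts homozygous for the Loxp allele, 4 with Cre (Cre+; 3 females and 1 male) and 5 without it (Cre-, here the controls; 3 females and 2 males). The titles of the Cre+ samples name Myh6, a cardiomyocyte myosin gene whose promoter is used to drive Cre in these cells. Every Cre+ heart carried the transgene, so effects of the transgene and of the loss of Cap2 cannot be told apart, and no heart with Cre alone was analysed here. The RNA came from whole hearts. The labels do not say that the samples are separate animals; if they are not, p-values measure a spread that may be technical.

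Oxidative phosphorylation passes electrons from NADH (complex I) or succinate (complex II) through complex III and cytochrome c to oxygen at complex IV, and complex V makes ATP from the proton gradient this builds. Most subunits are encoded in the nucleus, and a core of complexes I, III, IV and V is encoded in mitochondrial DNA. Heart muscle is rich in mitochondria, and several complex IV subunits have a heart and skeletal muscle form and a form found in most other tissues, encoded by different genes.

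The targeted gene was low in both experiments. Cap2 averaged 12.2 ± 3.89 CPM (counts scaled to the library total) in CAP2 -/- and 214 ± 15.7 CPM in WT hearts (SD, n = 3 each), and its log2 fold change was -4.13 with an SE of 0.20 (adjusted p = 1e-07, edgeR quasi-likelihood test with Benjamini-Hochberg adjustment). In experiment B its normalized read count averaged 65.0 ± 24.2 in Cre+ (n = 4) and 391 ± 288 in control hearts (SD, n = 5), with a fitted log2 change of -2.22 (SE 0.36, adjusted p = 0.0161, limma). The adjusted p was 0.0922 without Cre+ replicate 4 and 0.0692 without control replicate 1.

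Total estimated counts per library ran from 10750175 to 27440478 in experiment A; for experiment B only normalized counts are at hand, so its depth is unknown. The 10 cardiomyocyte markers summed to 79413 to 95651 CPM in CAP2 -/- and 86195 to 96462 CPM in WT hearts, and the 8 fibroblast markers to 1083 to 1199 CPM in CAP2 -/- and 855 to 933 CPM in WT hearts. In experiment B the cardiomyocyte markers summed to 212214 to 327571 normalized counts in Cre+ and 271775 to 399402 in control hearts (1 of 10 called, lower), and the fibroblast markers to 10639 to 26766 in Cre+ and 3343 to 13055 in control hearts (1 of 8 called, higher). The 8 atrial markers summed to 84059 to 175714 in Cre+ and 113 to 10543 in control hearts (0 of 8 called). Nppa alone had 80982 to 155401 in Cre+ and 0 to 2511 in control hearts, and the other atrial markers overlapped between the groups. In experiment A Nppa averaged 4265 CPM in CAP2 -/- and 95.3 CPM in WT hearts. Of the 7 atrial markers tested there, 2 were called, both higher. The groups did not overlap for 5 that were higher and 1 that was lower. Where atrial markers entered a fit as a further term, Nppa was left out. The 10 skeletal muscle markers summed to 639 to 2605 in Cre+ and 89 to 178 in control hearts (4 of 5 tested called, higher). Mitochondrially encoded genes took 52.7%, 31.5%, 23.0% and 33.9% of the total in the Cre+ libraries and 45.0%, 52.2%, 69.5%, 30.4% and 37.8% in the controls. What part the cells behind these markers have in the values of the subunits was not tested. In whole-heart RNA, fewer cells of a type and less RNA per cell cannot be told apart.

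A control library of experiment B stood apart in these genes. In control replicate 4, a male, the 48 members with transcripts under 1000 bases lay a median 1.18 below the other controls on the log2 scale, while the 34 longer members had a median difference of 0.0. Across all genes the same split gave -1.04 for 713 short and -0.06 for 11420 longer transcripts. Over 12133 genes the fold changes of experiment B fell with transcript length (Spearman -0.29), also without control replicate 4 (-0.22). Over the 82 members the Spearman value was -0.50, and -0.26 without that library. Most respiratory subunits are small proteins with short transcripts, so this library weighs on the comparison. Results for the members that turn on it are given with and without it. Among the Cre+ libraries, replicate 3, a female, had a median over the 82 members 0.47 below the others, the lowest sum of cardiomyocyte markers (212214) and the highest sum of fibroblast markers (26766); results that turn on it are likewise given without it.

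**Figure D1:**
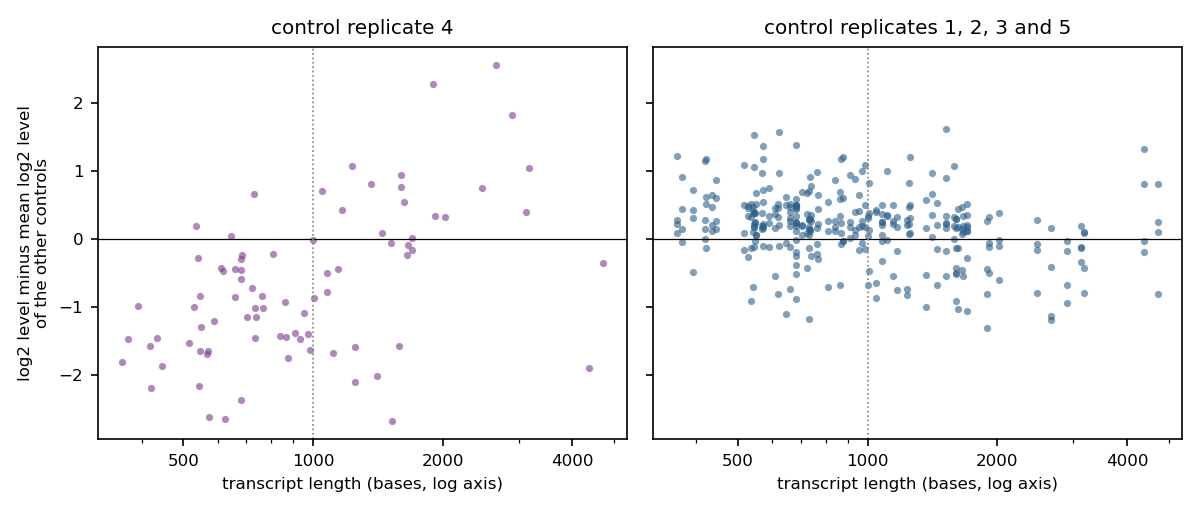
Difference in log2 normalized count between a control library of experiment B and the mean of the other controls, for each of the 82 members tested, against transcript length in bases (log axis; dotted line at 1000 bases). In control replicate 4 the short transcripts lie a median 1.18 lower, and in the other 4 controls their medians lie between 0.01 and 0.72.

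No member was called in the 86-week hearts. Of 85 members tested, 0 had an adjusted p under 0.05 (edgeR), against 1.35% of all 16297 genes tested (0.841% higher and 0.509% lower), and 0 did with DESeq2 (2.43% of all genes) or in the authors' deposited table (2.61%). At an unadjusted p under 0.05 there were 4 members (4.71%, against 10.4% of all genes), namely Ndufa1, Ndufa3, Cox7a2l and Cox7a1. The groups did not overlap for 8 members (9.41%, against 15.6%), 4 of them higher (4.71%, against 7.63%) and 4 lower (4.71%, against 8.0%). The median log2 fold change was -0.014 over the members and 0.006 over all genes, with the members between -0.88 and 0.40.

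The complexes lay close to each other in experiment A. Medians of the log2 fold change were -0.018 for the 35 genes of complex I and 0.004 for the 4 of complex II. They were 0.032 for the 10 of complex III with cytochrome c, -0.125 for the 18 tested of complex IV and 0.020 for the 18 of complex V. Leaving out 1 library gave -0.123 to 0.06, -0.065 to 0.058, -0.017 to 0.147, -0.187 to 0.006 and -0.078 to 0.129 for complexes I to V. The 50 members with transcripts under 1000 bases differed between CAP2 -/- libraries. Against the other CAP2 -/- libraries their median log2 difference was 0.30 in replicate 1 and -0.36 in replicate 2. Together the members made up 4.12% ± 0.182 of the nuclear gene counts in CAP2 -/- and 4.42% ± 0.233 in WT hearts (SD, n = 3 each), and the range of 3.92% to 4.28% in CAP2 -/- overlapped that of 4.15% to 4.58% in WT hearts.

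Among the complex I genes, Ndufa1, a small accessory subunit needed for assembly of the membrane arm, had 142, 126 and 119 CPM in CAP2 -/- hearts, against 90.0, 92.8 and 111 CPM in WT hearts. All CAP2 -/- libraries were above all WT libraries, with a fitted log2 change of 0.40 (SE 0.12, adjusted p = 0.163, edgeR) that did not pass the test. The accessory subunit Ndufa3 was lower in all CAP2 -/- libraries, with 77.5, 60.6 and 75.6 CPM in CAP2 -/- and 109, 85.5 and 87.2 CPM in WT hearts (log2 fold change -0.40, SE 0.14, adjusted p = 0.229). Ndufs7, a core subunit near the quinone site, also had lower values in all CAP2 -/- libraries, with 426, 379 and 422 CPM in CAP2 -/- and 475, 455 and 467 CPM in WT hearts, and did not pass the test (adjusted p = 0.594, edgeR).

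In complex II, Sdha, the flavoprotein that oxidises succinate, had 1757, 1622 and 1804 CPM in CAP2 -/- and 1974, 1864 and 1958 CPM in WT hearts. The ranges did not overlap, and the fitted log2 change of -0.16 (SE 0.10, adjusted p = 0.660, edgeR) did not pass. Sdhb, the iron-sulfur subunit and the member of complex II with the highest level per kilobase, had 1509, 1112 and 1274 CPM in CAP2 -/- and 1359, 1235 and 1219.7 CPM in WT hearts, which overlap. In complex III, the core protein gene Uqcrc2 had 1035, 1111 and 981 CPM in CAP2 -/- and 846, 913 and 964 CPM in WT hearts, with no overlap and a log2 difference of 0.20 (SE 0.11, adjusted p = 0.565). Its partner Uqcrc1 had 1794, 1281 and 1256 CPM in CAP2 -/- and 1828, 1499.9 and 1477 CPM in WT hearts. Cycs, the somatic cytochrome c, had the highest fold change of the complex (log2 0.29, SE 0.16, adjusted p = 0.588), with overlap.

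In complex V, Atp5b, the catalytic beta subunit, had the highest level per kilobase, a mean of 3124 CPM per kilobase over the 6 libraries. It had 5585, 5421 and 5962 CPM in CAP2 -/- and 6793, 5709.5 and 6444 CPM in WT hearts. Atp5d, the delta subunit of the central stalk, and Atp5k, a small membrane subunit, had the lowest and the highest log2 fold changes of the complex, -0.22 (SE 0.12) and 0.31 (SE 0.17), with adjusted p = 0.578 and 0.584 (edgeR). Both overlapped between the groups. Fold changes ran from -0.40 to 0.40 in complex I, from -0.16 to 0.08 in complex II, from -0.15 to 0.29 in complex III and from -0.88 to 0.37 in complex IV.

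In the 13-week hearts no member was called either. Of 82 members tested, 0 had an adjusted p under 0.05 (limma), against 1.88% of all 12141 genes (0.947% higher and 0.931% lower), and 0 did without control replicate 4, when 387 genes passed over all, or without Cre+ replicate 3. At an unadjusted p under 0.05 there were 4 members (4.88%, against 22.1% of all genes), namely Cox6a1, Cox8a, Sdha and Atp5b. The groups did not overlap for 1 member, Cox6a1, which was higher in Cre+ hearts (1.22%, against 8.66% of all genes, 3.87% higher and 4.79% lower). The median log2 fold change was -0.093 over the members and -0.116 over all genes. The direction over all members turned on single libraries: 29 members had a positive and 53 a negative fold change (64.6% negative, against 58.5% of all genes), 13 and 69 without control replicate 4, and 46 and 36 without Cre+ replicate 3, with medians of -0.233 and 0.043 in the last 2 settings.

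**Figure D2:**
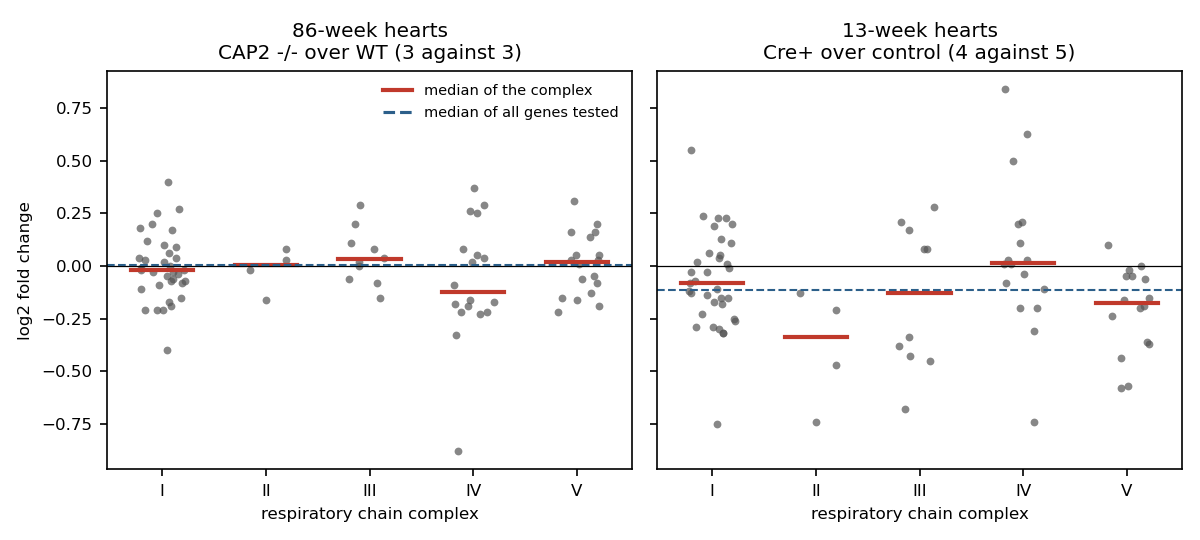
Log2 fold change of each member tested, by complex, CAP2 -/- over WT at 86 weeks (left) and Cre+ over control at 13 weeks (right); red bars are the medians of a complex and the dashed line the median of all genes tested. The spread is wider at 13 weeks, from -0.75 (Ndufs1) to 0.84 (Cox6a1), and the 4 genes of complex II lie below 0 there.

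The 4 genes of complex II, the entry point for electrons from succinate, had a median log2 fold change of -0.339, against -0.116 over all genes. It was -0.335 without control replicate 4 and -0.319 without Cre+ replicate 3, with 4 of 4 negative each time. With the atrial markers other than Nppa as a further term it was -0.112. None of the 4 passed the test. All 4 have transcripts of 1000 bases or over. The 34 members of that length, these 4 included, had a median of -0.25, or -0.30 without control replicate 4. The 48 shorter members had a median of -0.0, or -0.20 without that library. Sdha had normalized read counts of 1937, 2274, 1900 and 2632 in Cre+ hearts, against 3615, 2735, 2357, 10911 and 3903 in control hearts. The Cre+ values lay at the low end and overlapped the controls at 1 library, with a fitted log2 change of -0.74 (SE 0.33, adjusted p = 0.213, limma), or -0.51 (SE 0.20, adjusted p = 0.151) without control replicate 4. Sdhd, a membrane anchor, had 1085, 1027, 1002 and 1569 in Cre+ and 1944, 1093, 1154, 3136 and 2024 in control hearts. Sdhc, the other anchor, had 958, 1336, 1238 and 1788 in Cre+ and 1620, 985, 1204, 2725 and 1604 in control hearts, and Sdhb had 5528, 4404, 3344 and 5004 in Cre+ and 5851, 6868, 3830, 4060 and 5997 in control hearts. All of these genes overlapped between the groups. Summed, complex II made up 0.232% ± 0.0377 of nuclear counts in Cre+ (n = 4) and 0.349% ± 0.115 in control hearts (SD, n = 5), with ranges of 0.186% to 0.277% in Cre+ and 0.224% to 0.535% in control hearts.

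In complex V, 15 of the 16 members tested had a negative fold change, with a median of -0.175, near the -0.116 of all genes; without Cre+ replicate 3 there were 9 of 16 and a median of -0.035, and without control replicate 4 there were 16 of 16 and a median of -0.331. Atp5b had 18539, 14674, 12181 and 17802 normalized counts in Cre+ and 23231, 22531, 18256, 29005 and 28759 in control hearts. The ranges met only between Cre+ replicate 1 and control replicate 3, and the fitted log2 change of -0.57 (SE 0.26, adjusted p = 0.220, limma) did not pass. Atp5s, a factor related to ATP synthase and low in these hearts, had 84, 62, 64 and 62 in Cre+ and 120, 95, 80, 157 and 77 in control hearts. Atp5e, the epsilon subunit and the member of the complex with the highest level per kilobase, had 6455, 4360, 3800 and 6918 in Cre+ and 6654, 9601, 7031, 1481 and 4628 in control hearts. The complex summed to 2.19% ± 0.416 of nuclear counts in Cre+ (n = 4) and 2.81% ± 0.378 in control hearts (SD, n = 5).

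**Figure D3:**
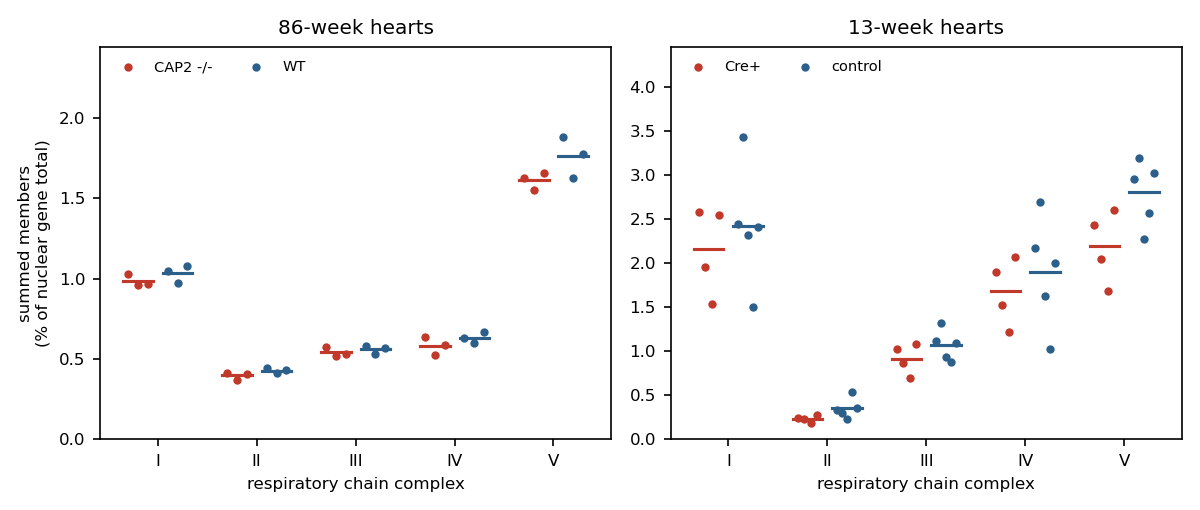
Summed counts of the members of each complex as a percentage of all nuclear gene counts, one point per library with the group mean as a bar, CAP2 -/- and WT at 86 weeks (left) and Cre+ and control at 13 weeks (right). Complex II averages 0.232% in Cre+ and 0.349% in control hearts, and every complex overlaps between the groups at 13 weeks.

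Complexes I and III held genes of either sign at 13 weeks. Complex I had 13 positive and 22 negative of 35 and a median of -0.081, or 4 and 31 without control replicate 4 and 21 and 14 without Cre+ replicate 3. Complex III had 5 and 5 of 10 and a median of -0.128, or 3 and 7 and a median of -0.306 without control replicate 4 and 5 and 5 and a median of -0.050 without Cre+ replicate 3. Ndufs1, the largest iron-sulfur subunit of complex I, had the lowest fold change of all members, with 731, 790, 654 and 1014 normalized counts in Cre+ and 1205, 783, 805, 6266 and 1660 in control hearts. Control replicate 4 was far above the rest, and the fitted log2 change of -0.75 (SE 0.39, adjusted p = 0.283, limma) was -0.43 (SE 0.20, adjusted p = 0.216) without it. Uqcrc2 was likewise far higher in that library, with 872, 1313, 1112 and 961 in Cre+ and 1465, 904, 1188, 6644 and 2169 in control hearts, and fold changes of -0.68 with and -0.37 without that library. Ndufa11, a membrane subunit of complex I, had 4057, 3372, 2809 and 4379 in Cre+ and 2645, 4218, 2584, 940 and 2576 in control hearts (log2 fold change 0.55, SE 0.37, adjusted p = 0.392). Its fold change was 0.29 without control replicate 4, which had the lowest value, and 0.14 without Cre+ replicate 4, the only Cre+ male. Because sex is a term, the fold change without Cre+ replicate 4 compares females only. Cycs had 1333, 1441, 999 and 1254 in Cre+ and 1403, 1881, 1573, 2118 and 1590 in control hearts, which overlap at 1 library (log2 fold change -0.43, SE 0.22, adjusted p = 0.284). Per kilobase the small accessory subunit Ndufb7 was the highest of complex I, a mean of 8346 normalized counts, and Uqcrh, the hinge protein, the highest of complex III with 10998. Uqcrh had 6746, 5464, 4915 and 8441 in Cre+ and 6341, 6885, 5453, 3489 and 6407 in control hearts, with wide overlap.

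Complex IV ran from -0.74 (Cox7a1) to 0.84 (Cox6a1) at 13 weeks, the widest span of the 5 complexes. Cox6a1, Cox7a2 and Cox8a encode the forms found in most tissues, often called the liver forms, and Cox6a2, Cox7a1 and Cox8b the heart and skeletal muscle forms. Cox6a1 lies at chr5:115345642-115348981 and Cox6a2 at chr7:128205435-128206387, Cox7a2 at chr9:79755361-79759878 and Cox7a1 at chr7:30184144-30186078, and Cox8a at chr19:7215153-7217616 and Cox8b at chr7:140898945-140900446 (GRCm38). The 250 bases before the RefSeq start site are shown so that the 2 genes of a pair can be compared. Capitals mark matches, on either strand, to any of the motifs searched. The E-box was written as CANNTG. The core of sites for ETS factors was written as CGGAAG. The Sp1 box was taken to be GGGCGG. The half-site of estrogen-related receptors (ERR) was taken to be AAGGTCA, and the TATA box to be TATAAA. The NRF-1 box, the palindromic site of nuclear respiratory factor 1, and the MEF2 box were searched as well. No matches overlap in these 5 sequences. No promoter of Cox6a2 was in the table used.
Cox7a1 (chr7:30183921-30184170, plus strand): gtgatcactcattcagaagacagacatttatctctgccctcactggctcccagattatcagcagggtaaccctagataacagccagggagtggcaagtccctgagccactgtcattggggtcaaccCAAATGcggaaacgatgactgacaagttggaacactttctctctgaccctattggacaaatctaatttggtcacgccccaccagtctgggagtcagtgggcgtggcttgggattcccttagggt
Cox7a2 (chr9:79759854-79760103, minus strand): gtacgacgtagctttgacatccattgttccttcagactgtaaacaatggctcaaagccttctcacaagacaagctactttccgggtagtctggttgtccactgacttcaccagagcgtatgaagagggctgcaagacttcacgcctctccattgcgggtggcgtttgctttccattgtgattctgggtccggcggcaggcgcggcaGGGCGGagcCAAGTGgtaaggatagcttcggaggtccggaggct
Cox8b (chr7:140900447-140900696, minus strand): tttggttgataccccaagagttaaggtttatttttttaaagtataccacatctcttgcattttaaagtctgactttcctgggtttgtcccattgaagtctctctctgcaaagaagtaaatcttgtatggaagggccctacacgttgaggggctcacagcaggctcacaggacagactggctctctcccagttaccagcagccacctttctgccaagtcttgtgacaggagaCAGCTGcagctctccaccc
Cox8a (chr19:7217617-7217866, minus strand): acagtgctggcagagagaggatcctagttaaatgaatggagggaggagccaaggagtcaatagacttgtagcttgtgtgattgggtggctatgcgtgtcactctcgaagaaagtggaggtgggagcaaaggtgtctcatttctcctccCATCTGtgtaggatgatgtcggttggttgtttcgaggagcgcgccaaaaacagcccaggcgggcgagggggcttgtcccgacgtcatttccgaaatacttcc
Cox6a1 (chr5:115348959-115349208, minus strand): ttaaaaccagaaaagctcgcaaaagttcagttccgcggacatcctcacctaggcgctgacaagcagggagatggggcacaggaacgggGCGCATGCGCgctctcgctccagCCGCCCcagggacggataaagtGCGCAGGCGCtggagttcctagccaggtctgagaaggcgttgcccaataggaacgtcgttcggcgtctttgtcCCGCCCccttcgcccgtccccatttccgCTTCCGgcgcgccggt

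In this window the heart forms Cox7a1 and Cox8b held 1 E-box each, at 124 to 119 bases and at 19 to 14 bases before the start site, and Cox8a also held 1 E-box. Cox7a2 held 1 E-box and 1 Sp1 box, and Cox6a1 an ETS core, 2 Sp1 boxes and 2 NRF-1 boxes. Promoters were found for 70 of the 87 member symbols, with 1 taken per member. The set of all promoters could hold several start sites of a gene, so the shares come from unlike sets. The NRF-1 box was in 12 of the 70 (17.1%) and in 3.74% of all 32851 promoters of this length, and the ETS core in 19 (27.1%) and 13.6%. The E-box was in 44 (62.9%) and 66.2%, the Sp1 box in 25 (35.7%) and 32.7%, the ERR half-site in 5 (7.14%) and 4.08%, the TATA box in 6 (8.57%) and 12.4%, and the MEF2 box in 0 and 2.92%. A match describes letters and shows no binding.

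At 13 weeks the non-muscle form Cox6a1 had 609, 734, 901 and 793 normalized counts in Cre+ hearts, against 456, 602, 438, 160 and 543 in control hearts. All Cre+ libraries were above all controls, with a fitted log2 change of 0.84 (SE 0.34, adjusted p = 0.189, limma), or 0.57 (SE 0.19, adjusted p = 0.113) without control replicate 4. The non-muscle form Cox8a had 778, 948, 1064 and 867 in Cre+ and 733, 802, 572, 268 and 571 in control hearts, overlapping at 1 library, with a fitted log2 change of 0.63 (SE 0.27, adjusted p = 0.206), or 0.46 without control replicate 4. Cox7a2 had 3492, 2605, 2535 and 3795 in Cre+ and 3558, 4177, 3013, 1997 and 3810 in control hearts, which overlap widely.

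The heart form Cox7a1 had 4641, 3146, 2056 and 4767 in Cre+ and 7301, 8599, 4402, 3337 and 6821 in control hearts, with a fitted log2 change of -0.74 (SE 0.37, adjusted p = 0.259, limma). Without control replicate 4 it was -0.93 (SE 0.30, adjusted p = 0.104), and without Cre+ replicate 3 it was -0.50. Cox6a2 had 13861, 10717, 7443 and 13951 in Cre+ and 15605, 25363, 15468, 3175 and 11708 in control hearts, and Cox8b had 4933, 3463, 2336 and 4528 in Cre+ and 5007, 8409, 4844, 1566 and 4493 in control hearts. In both genes control replicate 4 was the lowest of all libraries, and their fold changes were -0.20 (SE 0.48) and -0.31 (SE 0.42), or -0.55 and -0.59 without that library and 0.05 and -0.05 without Cre+ replicate 3. With the mitochondrial share as a further term they were 0.31 and 0.16.

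**Figure D4:**
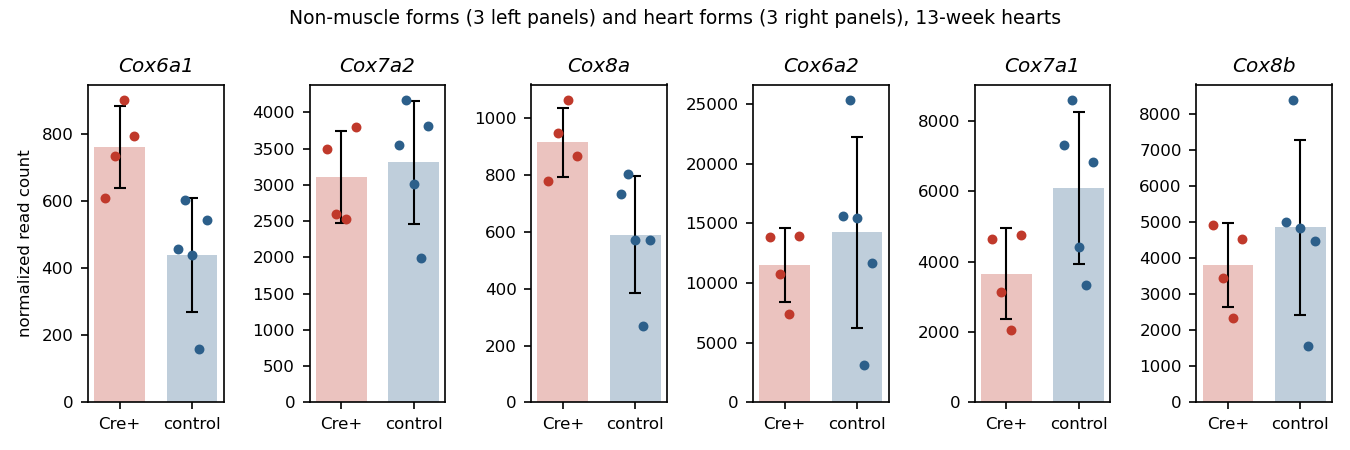
Normalized read counts of 3 complex IV subunits in Cre+ and control hearts at 13 weeks, as the form of most tissues (Cox6a1, Cox7a2, Cox8a) and the heart form (Cox6a2, Cox7a1, Cox8b); points are libraries, bars the mean and error bars the SD (n = 4 Cre+ and 5 controls). Cox6a1 lies between 609 and 901 in Cre+ and between 160 and 602 in control hearts.

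A ratio within a library is free of what scales both genes alike. The ratios are of read counts, not corrected for transcript length, and were compared by an exact two-sided permutation test over libraries. Of 11 pairs listed, 8 could be tested in experiment B, where the smallest p possible is 0.0159. The Cox7a1/Cox7a2 ratio was 1.33, 1.21, 0.811 and 1.26 in Cre+ hearts, against 2.05, 2.06, 1.46, 1.67 and 1.79 in control hearts. Every Cre+ heart had a lower ratio than every control, a mean log2 difference of -0.66 (0.631-fold; exact permutation p = 0.0159, the smallest possible; adjusted over the 8 pairs p = 0.127). The difference was -0.69 without control replicate 4 (exact p = 0.0286), -0.50 without Cre+ replicate 3 (exact p = 0.0357) and -0.75 among females, where 3 against 3 cannot go below p = 0.10.

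For the other heart forms the ratio to the partner was also lower on average in Cre+ hearts, with overlap between the groups. The Cox8b/Cox8a ratio was 6.33, 3.65, 2.19 and 5.22 in Cre+ and 6.82, 10.5, 8.46, 5.83 and 7.86 in control hearts, a log2 difference of -0.94 (exact permutation p = 0.0317, adjusted p = 0.127). The Cox6a2/Cox6a1 ratio was 22.7, 14.6, 8.25 and 17.6 in Cre+ and 34.1, 42.1, 35.2, 19.7 and 21.5 in control hearts, a log2 difference of -0.98 (exact permutation p = 0.0476, adjusted p = 0.127). In each of the 2 pairs 1 Cre+ heart, replicate 1, lay above the lowest control. Without Cre+ replicate 3 the differences were -0.65 (exact p = 0.0714) and -0.70 (exact p = 0.107). Without control replicate 4 they were -1.04 (exact p = 0.0286) and -1.13 (exact p = 0.0571). The p of 0.0286 is the smallest possible there, as Cox8b/Cox8a no longer overlapped. None of the 3 ratios passed after adjustment over the 8 pairs. By its own p, 1 pair without overlap cannot go below an adjusted p of 0.127 (exact permutation test). A single separated pair could therefore not pass alone. Cre+ replicate 3, with the lowest value of all 3 ratios, also had the lowest cardiomyocyte sum and the highest fibroblast, macrophage and endothelial sums of the Cre+ hearts (26766, 5057 and 12868), and the part of these cells in the ratios was not tested.

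The remaining pairs of experiment B overlapped. The hypoxia-inducible Ndufa4l2 over Ndufa4, a subunit now placed in complex IV, was 0.0257, 0.0419, 0.0745 and 0.0199 in Cre+ and 0.0205, 0.0279, 0.0352, 0.0117 and 0.0168 in control hearts (log2 difference 0.77, exact permutation p = 0.175), or 0.41 without Cre+ replicate 3, which had the highest ratio (exact permutation p = 0.393). Cox7a2l/Cox7a2, Cox4i2/Cox4i1 and the 2 pairs of the c-ring genes, Atp5g1/Atp5g3 and Atp5g2/Atp5g3, differed by 0.28, 0.06, 0.17 and -0.15 on the log2 scale, with exact permutation p = 0.143, 0.857, 0.460 and 0.794. Cox7a2l/Cox7a2 overlapped only through control replicate 3, with 0.487 there and 0.389, 0.441, 0.450 and 0.408 in Cre+ hearts. Without that control its difference was 0.41 (exact permutation p = 0.0286, adjusted p = 0.114).

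At 86 weeks the same ratios were measured with 3 against 3 hearts, which cannot give a p below 0.10. Cox7a1/Cox7a2 was 2.70, 2.65 and 2.63 in CAP2 -/- and 2.71, 3.38 and 2.81 in WT hearts, a log2 difference of -0.15 in which the groups just failed to overlap (exact permutation p = 0.1, adjusted over 9 pairs p = 0.45). Without WT replicate 2, which had the highest Cox7a1/Cox7a2 ratio, it was -0.05. Cox7a2l/Cox7a2 was 1.10, 1.95 and 1.33 in CAP2 -/- and 1.02, 0.885 and 0.907 in WT hearts, a log2 difference of 0.60 (exact permutation p = 0.1), or 0.37 without CAP2 -/- replicate 2. Cox7a2l itself averaged 187 ± 10 CPM in CAP2 -/- and 144 ± 26.1 CPM in WT hearts (SD, n = 3 each), with the nearest libraries of the groups 16 CPM apart (log2 fold change 0.37, SE 0.13, adjusted p = 0.276, edgeR). Cox7a1 had 444, 271 and 359 CPM in CAP2 -/- and 438, 440 and 472 CPM in WT hearts (log2 fold change -0.33, SE 0.15, adjusted p = 0.457). Cox8b/Cox8a was 5.85, 2.61 and 3.29 in CAP2 -/- and 6.40, 4.03 and 3.16 in WT hearts, and Cox6a2/Cox6a1 was 17.7, 21.7 and 19.0 in CAP2 -/- and 13.7, 22.9 and 21.8 in WT hearts, both with overlap (log2 differences -0.23 and 0.03). Whether the ratios changed differently in the 2 experiments was not tested, since kit, age and allele differ between them.

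**Figure D5:**
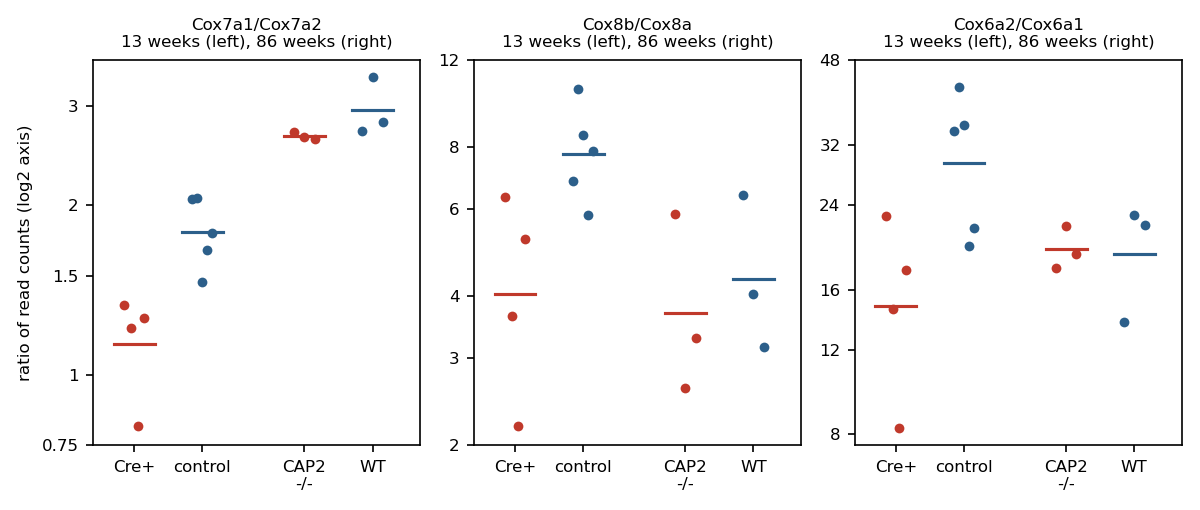
Ratio of read counts of the heart form to the form of most tissues, on a log2 axis, for 3 pairs of complex IV genes; points are libraries and bars geometric means, Cre+ and control at 13 weeks, then CAP2 -/- and WT at 86 weeks. Cox7a1/Cox7a2 runs from 0.811 to 1.33 in Cre+ and from 1.46 to 2.06 in control hearts.

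Forms known from testis were low or listed at 0. Cox8c was at 0 in every library of both experiments and Cox7b2 had at most 0.181 CPM in experiment A and 1 normalized count in experiment B. Cox6b2 had 1.18, 0.343 and 0.804 CPM in CAP2 -/- and 1.10, 1.91 and 1.35 CPM in WT hearts, the lowest fold change of all members in experiment A (-0.88, SE 0.51, adjusted p = 0.614, edgeR) at a level under 2 CPM in every library. In experiment B it had 11, 3, 15 and 4 normalized counts in Cre+ and 9, 11, 4, 5 and 10 in control hearts and fell below the filter. Among the complex IV genes of experiment B, Cox6a2 had the highest level per kilobase, a mean of 19165 normalized counts, followed by Cox4i1 with 17082 and Cox7a1 with 12742. In experiment A Cox4i1 led with 2504 CPM per kilobase, followed by Cox6a2 with 1864 and Cox8b with 1153.

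Tissue forms also arise by splicing, and the exon values of experiment A were read for 2 members, in heart only. Atp5c1, the gamma subunit of ATP synthase, is known to skip a short exon in muscle. That exon is shown in capitals, after the last 20 bases of the exon before it (GENCODE M21, chr2:10056770-10056806, minus strand), as it is the sequence that the muscle transcript is known to leave out.
Atp5c1 exon: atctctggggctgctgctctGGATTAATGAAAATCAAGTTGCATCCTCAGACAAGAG
The 37-base exon had 0.0, 0.503 and 0.767 estimated reads in CAP2 -/- and 0.0, 0.0 and 0.167 in WT hearts. The 97-base exon next to it on the gene's 5′ side had 571, 513 and 708 in CAP2 -/- and 1066, 448 and 831 in WT hearts. In Ndufv3, a small complex I subunit, the 1092-base exon at chr17:31527310-31528401 that only the long form includes held 4.69%, 7.75% and 5.13% of the gene's reads in CAP2 -/- and 5.52%, 6.63% and 5.16% in WT hearts, which overlap. Exon values were not at hand for experiment B.

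At 86 weeks, of 37 assembly factors tested 0 were called, with 2 at an unadjusted p under 0.05 (5.41%, against 10.4% of all genes) and a median log2 fold change of -0.05. Of 19 regulators 0 were called, with 5 at that p (26.3%) and a median of -0.04. Esrra and Esrrg, nuclear receptors that drive respiratory genes, were lower on average. Esrra had 117 ± 23.2 CPM in CAP2 -/- and 157 ± 22.8 CPM in WT hearts (SD, n = 3 each), and Esrrg 40.7 to 45.8 CPM in CAP2 -/- and 53.8 to 55.5 CPM in WT hearts. Neither passed (adjusted p = 0.279 and 0.236, edgeR). Ppargc1b, a coactivator of mitochondrial biogenesis, had 23.1 ± 3.77 CPM in CAP2 -/- and 14.6 ± 3.92 CPM in WT hearts (adjusted p = 0.149).

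At 13 weeks the summed normalized counts of the 22 regulators were 2160 to 2893 in Cre+ and 3769 to 5996 in control hearts, with no overlap. Control replicate 4 had the highest sum, and the other controls had 3769 to 4701. The median log2 fold change of the 21 tested was -0.54, against -0.116 over all genes, and is not given here without control replicate 4. None passed the test over all genes (limma), and 9 had an unadjusted p under 0.05, all with a negative fold change. That is 42.9% of the list, against 22.1% of all genes at this p, and 58.5% of all genes had a negative fold change. The share of negative fold changes among all genes at this p was not counted. Transcript length, with which fold changes fell over all genes, was not taken into account for the list. The genes named next are given with all libraries only. Perm1, a muscle regulator of mitochondrial genes, averaged 638 ± 178 in Cre+ (n = 4) and 1366 ± 417 in control hearts (SD, n = 5; log2 fold change -1.06, SE 0.29, adjusted p = 0.0807). Polg, the mitochondrial DNA polymerase, averaged 191 ± 65.7 in Cre+ and 347 ± 83.6 in control hearts (log2 fold change -0.96, SE 0.23, adjusted p = 0.0592), and Esrrb, an estrogen-related receptor, averaged 42.2 ± 5.62 in Cre+ and 114 ± 59.6 in control hearts (log2 fold change -1.25, SE 0.34, adjusted p = 0.0803).

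Of 51 assembly factors tested in experiment B, 1 was called (1.96%, against 1.88% of all genes), with 12 at an unadjusted p under 0.05 (23.5%, against 22.1%), both shares near those of all genes. Cox19, a copper-handling factor of complex IV assembly, averaged 446 ± 63.0 in Cre+ (n = 4) and 228 ± 50.7 in control hearts (SD, n = 5), with a fitted log2 change of 0.94 (SE 0.21, adjusted p = 0.0484, limma). The call held in 3 of 9 fits that left out 1 library, with adjusted p of 0.0348 to 0.218. It was also lost without a filter on low values (adjusted p = 0.0615), with TMM scaling (0.0528), a replicate block (0.0722), the mitochondrial share (0.197) or the atrial markers (0.443) in the fit, and among females (0.107). Ndufaf4, an assembly factor of complex I, averaged 155 ± 56.1 in Cre+ and 301 ± 51.2 in control hearts (log2 fold change -1.01, SE 0.26, adjusted p = 0.0733). The list's median was -0.17. The mitochondrially encoded subunits, the partners of the nuclear ones, had 8 of 13 tested in experiment B and 0 called, against 1.88% of all genes. At an unadjusted p under 0.05 there was 1 (12.5%, against 22.1%, limma). Their median was -0.80, against -0.116 over all genes. Their summed counts ran from 1185683 to 4343195 in Cre+ and from 1679678 to 8362087 in control hearts, with the highest in control replicate 3. mt-Co1, the catalytic core of complex IV, ran from 346250 to 1549642 in Cre+ and from 673683 to 3196656 in control hearts. mt-Atp6, mt-Atp8, mt-Co2, mt-Co3 and mt-Nd4l were listed at 0 in every library, and the mitochondrially encoded genes of experiment A are not analysed here.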

How the data were processed

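Per the submitters' processing notes, STAR 2.6.0c, DESeq and mm10 were the tools and build, with no word on gene models, read counter or strand in the sources used here, so reads of overlapping genes and near-identical copies may be shared. For experiment A (Ion Total RNA-Seq libraries, per the labels' protocols) the authors deposited estimated counts per gene and exon, of which 26.5% of gene values above 0 are whole to within 1e-06. Their comparison holds, per the file headers, a mean signal per gene, log2 fold changes, a test score and p-values. For experiment B (stranded TruSeq libraries) the deposited values are whole normalized read counts, treated as a score because the normalization is not stated. A further Cre+ library was not analysed here.

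Estimated counts were rounded to whole numbers and, in R 4.3.3, entered edgeR 4.0.16 (TMM, filterByExpr, robust quasi-likelihood test); the SE is the log2 fold change over the square root of F. CPM are TMM-adjusted. For experiment B, log2(value + 1) entered limma 3.58.1 with trend and robust settings, for genes with a mean of at least 10, with sex as a term; on this scale the change of low genes is understated. P-values were adjusted by Benjamini-Hochberg over all genes tested, with a threshold of 0.05. DESeq2 1.42.0 was an alternative. The scripts were tested on simulated data. Replicates of a group differed by more than sampling noise in experiment A (chi-square per gene 10.7 to 29.1). Ratios used value + 1, for pairs with means of at least 10. Transcript lengths and positions are from GENCODE M21 and promoters from RefSeq GRCm38.p6. In CPM and normalized counts a gene's value also moves with the rest of its library. The members, lists, pairs and tests were chosen with earlier results of these data known. Genes named are Cap2, both genes of each pair, and per complex and experiment the genes with the smallest p, the largest rise and fall and the highest level. Of the regulators and assembly factors up to 3 genes with the smallest p are named, and of the atrial markers Nppa, with the smallest p in experiment A. Atp5c1 and Ndufv3 were fixed for their exons. Ndufs7 and mt-Co1 were named after their values were seen, as were the length classes.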

Additional observations from a re-analysis of the deposited data

Results flagged for a closer look

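In 102 groups of 4 or 5 libraries of experiment B, 5 members had 1 library far from the rest of its group; chance alone flags about 1 group in 20. Of these, 3 were in control replicate 4: Ndufs1 had 6266 normalized counts there and at most 1660 in the other controls, Sdha 10911 and at most 3903, and Uqcrc2 6644 and at most 2169. Sdhd had 1569 in Cre+ replicate 4 and at most 1085 in the other Cre+ libraries, and Atp5s had 84 in Cre+ replicate 1 and at most 64 in the others.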

How the results depend on the processing

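No alternative called a member in either experiment. Over all genes, experiment A called 220 genes, 402 with DESeq2, 512 without a filter on low counts and 126 to 275 when 1 library was left out (137 and 126 without CAP2 -/- replicates 2 and 3, 144 without WT replicate 3). Experiment B called 228, 346 without a filter on low values, 36 with the mitochondrial share and 17 with the atrial markers as a further term, and 38 to 704 when 1 library was left out; it was 704, 39, 48 and 57 without Cre+ replicates 1 to 4 and 48, 38, 82, 387 and 525 without control replicates 1 to 5, and the cause was not tested. Replicate numbers did not pair the libraries (correlations -0.169 to -0.021 in A and -0.113 to 0.240 in B); a replicate block called 394 genes in B and 0 members in either experiment. With the atrial markers as a term, Cap2 in B had an adjusted p of 0.24 (limma). The planned library totals without mitochondrially encoded genes could not be run in A, which has 0 such genes here. Uncalled fold changes near 0 changed sign. In A, leaving out 1 library gave ranges of -0.05 to 0.22 for Ndufa4, -0.09 to 0.13 for Sdhb, -0.07 to 0.09 for Uqcrh, -0.45 to 0.17 for Atp5e, -0.29 to 0.01 for Atp5g1, -0.28 to 0.05 for Atp5g2, -0.13 to 0.24 for Atp5s, -0.21 to 0.01 for Cox4i1, -0.49 to 0.03 for Cox4i2, -0.35 to 0.01 for Cox8b, -0.14 to 0.17 for Ndufa11, -0.26 to 0.03 for Ndufb7, -0.10 to 0.06 for Sdhc, -0.08 to 0.18 for Cox6b1, -0.12 to 0.19 for Cox8a, -0.12 to 0.02 for Ndufb10 and -0.06 to 0.14 for Uqcr10, and for the ratios -0.32 to 0.03 for Cox4i2/Cox4i1, -0.20 to 0.17 for Cox6a2/Cox6a1, -0.57 to 0.05 for Cox8b/Cox8a and -0.26 to 0.06 for Atp5g2/Atp5g3. In B they were -0.31 to 0.16 for Cox4i1, -0.69 to 0.16 for Atp5e, -0.59 to 0.11 for Ndufa3, -0.67 to 0.07 for Atp5k, -0.21 to 0.19 for Cox4i2, -0.82 to 0.05 for Cox6a2, -0.32 to 0.03 for Cox7a2, -0.19 to 0.07 for Cox7b, -0.24 to 0.01 for Ndufa4, -0.49 to 0.04 for Ndufb10, -0.40 to 0.27 for Atp5d, -0.02 to 0.32 for Cox7a2l, -0.12 to 0.46 for Ndufa1, -0.58 to 0.34 for Ndufb7, -0.08 to 0.42 for Uqcr10 and -0.13 to 0.28 for Uqcrh, and for the ratios -0.16 to 0.21 for Cox4i2/Cox4i1 and -0.52 to 0.13 for Atp5g2/Atp5g3. TMM scaling gave 0.03 for Atp5e and 0.03 for Cox7b, and Atp5e was 0.07 without the sex term and 0.04 with the replicate block. With the atrial markers as a term, Atp5d was -0.28, Cox4i1 -0.04, Cox4i2 -0.39, Cox7a2l -0.05, Cox7b 0.16 and Ndufb7 -0.44. Among females, Atp5d was -0.40, Cox4i1 -0.31, Cox4i2 -0.21, Cox7a2l -0.02, Ndufa1 -0.12, Ndufb7 -0.58, Uqcr10 -0.08, Uqcrh -0.13 and the ratio Atp5g2/Atp5g3 0.08. For single genes the fold changes among females are the same as those without Cre+ replicate 4, the only Cre+ male, because sex is a term. With the mitochondrial share as a term, Atp5e was 0.47, Atp5k 0.37, Cox6a2 0.31, Cox7a2 0.12, Cox8b 0.16, Ndufa3 0.36 and Ndufb10 0.11. Quantile normalization gave -0.17 for Cox4i1 and -0.01 for Ndufb7.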
